A study of Mus musculus with 8 samples.

Results

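Imprinted genes are genes of which the maternal or the paternal copy is used and the other is silent. The 34 genes described here were chosen by name, as known imprinted genes of the mouse, but with earlier results of these data known. The probe sets annotated with a single gene covered 22180 genes in all. Of the 34, 23 are known as paternally expressed and 11 as maternally expressed. For each gene the brightest probe set that carried its symbol alone was used. Such a probe set existed for 30 members. H19, Rtl1, Snrpn and Slc22a3 had none and were not analysed here. A further 7 members (Usp29, Zim1, Ascl2, Peg12, Dlk1, Dio3 and Airn) stayed dim and were not tested, which leaves 23 members with a test.

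Transcript levels came from Affymetrix Mouse Gene 2.1 arrays, with 2 arrays in each of 4 groups of wild type C57BL/6J mouse samples. FGF-ESC are stem cell lines kept in KODMEM with 20% KSR, a serum replacement, and FGF2 on feeder cells (MEF, mouse embryonic fibroblasts). EpiSC, a model of the primed epiblast after implantation, were kept in the same medium, also on MEF. ESC, the naive kind of stem cell, were kept in DMEM with 15% FCS, 2i (a pair of kinase inhibitors) and LIF, without MEF. ICM is uncultured inner cell mass isolated by immunosurgery from blastocysts at embryonic day 3.5, and its RNA was extracted with another column kit than that of the cultured cells. All lines, also EpiSC, are labelled as taken from embryos of that day, and the labels name neither the number of lines nor their sex or passage. Between ESC and either of the cultures on MEF, both the medium and the feeders differed.

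An imprint is a DNA methylation mark, set in the egg or the sperm on a short control element, that survives the loss of methylation after fertilization. ZFP57, a zinc finger protein that reads the methylated hexamer TGCCGC, holds such marks together with TRIM28 and DNMT1. A smaller class, called noncanonical, depends instead on a histone mark laid down in the oocyte and is kept mainly in extraembryonic tissue. Imprinted genes are known as regulators of fetal and placental growth, and their control is known to drift in cultured stem cells. The arrays sum the RNA of both parental copies, so none of the values below says which copy was read. They are also levels of bulk RNA, in which fewer cells of a type and less RNA per cell cannot be told apart.

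Promoter windows of 4 members whose promoter lies in the known control element are shown because the levels of these genes separate the groups below. The sequences are RefSeq's for build GRCm38.p6, from 250 bases before to 50 bases after the start, 5′ to 3′ on the gene's strand, with TGCCGC on either strand in capitals (GCGGCA is the same hexamer read on the other strand).
Plagl1 (chr10:13090582-13090881, + strand): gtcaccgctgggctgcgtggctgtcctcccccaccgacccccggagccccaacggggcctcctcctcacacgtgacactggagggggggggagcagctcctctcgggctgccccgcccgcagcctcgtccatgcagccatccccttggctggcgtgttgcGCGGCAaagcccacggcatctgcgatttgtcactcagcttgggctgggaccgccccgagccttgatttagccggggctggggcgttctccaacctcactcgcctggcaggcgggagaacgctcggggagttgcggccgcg
Peg3 (chr7:6730370-6730669, - strand): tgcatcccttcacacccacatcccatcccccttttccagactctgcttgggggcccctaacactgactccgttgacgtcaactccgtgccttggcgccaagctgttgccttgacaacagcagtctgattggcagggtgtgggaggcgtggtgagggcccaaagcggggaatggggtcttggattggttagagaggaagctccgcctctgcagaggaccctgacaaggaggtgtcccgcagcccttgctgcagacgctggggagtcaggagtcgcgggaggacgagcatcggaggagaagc
Mest (chr6:30737800-30738099, + strand): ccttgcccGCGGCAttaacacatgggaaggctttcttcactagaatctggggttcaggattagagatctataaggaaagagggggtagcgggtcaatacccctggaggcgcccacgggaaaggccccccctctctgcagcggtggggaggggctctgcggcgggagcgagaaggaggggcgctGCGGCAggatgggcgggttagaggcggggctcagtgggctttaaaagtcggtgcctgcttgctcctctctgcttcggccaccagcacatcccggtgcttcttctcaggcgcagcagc
Nnat (chr2:157559828-157560127, + strand): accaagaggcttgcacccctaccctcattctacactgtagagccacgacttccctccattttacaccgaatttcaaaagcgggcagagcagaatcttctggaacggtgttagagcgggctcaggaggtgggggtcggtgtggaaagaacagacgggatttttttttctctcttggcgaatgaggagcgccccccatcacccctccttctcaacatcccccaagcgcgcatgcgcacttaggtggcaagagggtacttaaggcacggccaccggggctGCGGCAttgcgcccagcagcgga
Of the 3 windows listed for Mest, 2 that start 3 bases apart have the most CG dinucleotides, and the upstream one is shown. The hexamer stands once in the window of Plagl1 and once in that of Nnat, at 2 places in that of Mest and at 0 in that of Peg3. The Peg3 window overlaps that of Usp29, on the opposite strand, by 263 bases. The table held 42 windows of 26 members, and 10 of the 42 (23.8%) held the hexamer on either strand, against 11.6% of all 32851 windows. A match is a stretch of letters, not a bound site, and methylation was not measured. The windows of members also had more CG dinucleotides, with a median of 15 against 7 over all windows.

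Beside the members, some facts of the arrays bear on the results. Values are log2 intensities as deposited, and the median of all values, 4.24, served as the floor: a gene was tested if it lay above the floor on at least 2 arrays. Of the 23 tested members, 17 lay above it on all 8 arrays, and the others were Plagl1, Sgce, Cdkn1c, Phlda2, Ndn and Magel2. The naive pluripotency list had a mean level of 7.15 and 7.55 in FGF-ESC, 4.92 and 5.35 in EpiSC, 7.99 and 7.98 in ESC and 7.64 and 7.63 in ICM. The primed list was at 4.92 and 4.98 in FGF-ESC, 6.51 and 6.72 in EpiSC, 4.56 and 4.58 in ESC and 4.61 and 4.73 in ICM. By these means EpiSC were lowest for the naive and highest for the primed list. By single genes, the primed markers Otx2 (6.1) and Sox3 (4.76) were highest in ICM. The naive marker Nr0b1 was at 3.93 in ICM and 3.95 in EpiSC, and Nanog at 9.01 in FGF-ESC and 9.08 in EpiSC. Fibroblast markers stood out on the FGF-ESC arrays: the mean of 19 marker genes was 8.61 and 7.38 in FGF-ESC, 5.05 and 5.33 in EpiSC, 4.28 and 4.31 in ESC and 4.40 and 4.53 in ICM. All 19 were above the floor on both FGF-ESC arrays, 15 on both EpiSC arrays, 8 on both ESC arrays and 10 on both ICM arrays. The ICM arrays had the highest mean of 12 trophectoderm markers (5.78 and 5.78, against 4.75 to 5.0 on the other arrays). The same held for the mean of 11 primitive endoderm markers (5.70 and 5.80, against 4.33 to 4.99). Not every marker followed its list: by group mean Tead4 and Lama1 were highest in ESC, Eomes and Foxa2 in EpiSC and Dab2 in FGF-ESC.

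A gene passed the test at a limma adjusted p below 0.05, over all 13597 tested genes, if its groups also differed by 1 or more on the log2 scale. By this rule 15 members passed in at least 1 of the 6 comparisons and 8 passed in none. How many of all tested genes passed in at least 1 was not counted, so the 15 cannot be set beside a share. FGF-ESC against EpiSC had 8 of 23 members past it, 3 higher and 5 lower, against 7.28% of all tested genes (5.26% higher, 2.02% lower). FGF-ESC against ESC had 4 higher and 1 lower, against 6.21% of all genes (5.27% and 0.934%). FGF-ESC against ICM had 10 higher and 1 lower, against 14.8% (9.57% and 5.22%). EpiSC against ESC had 6 higher and 3 lower, against 7.36% (3.86% and 3.5%). EpiSC against ICM had 9 higher and 2 lower, against 15.3% (8.48% and 6.8%), and ESC against ICM had 9 higher and 2 lower, against 11.4% (5.82% and 5.57%). The share of tested members that passed was thus above that of all genes in each of the 6 comparisons, between 21.7% and 47.8%. The comparisons share groups and are not separate evidence. The count for FGF-ESC against ESC, 5 members, was 2 without ESC array 1 and 1 without ESC array 2.

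**Figure D1:**
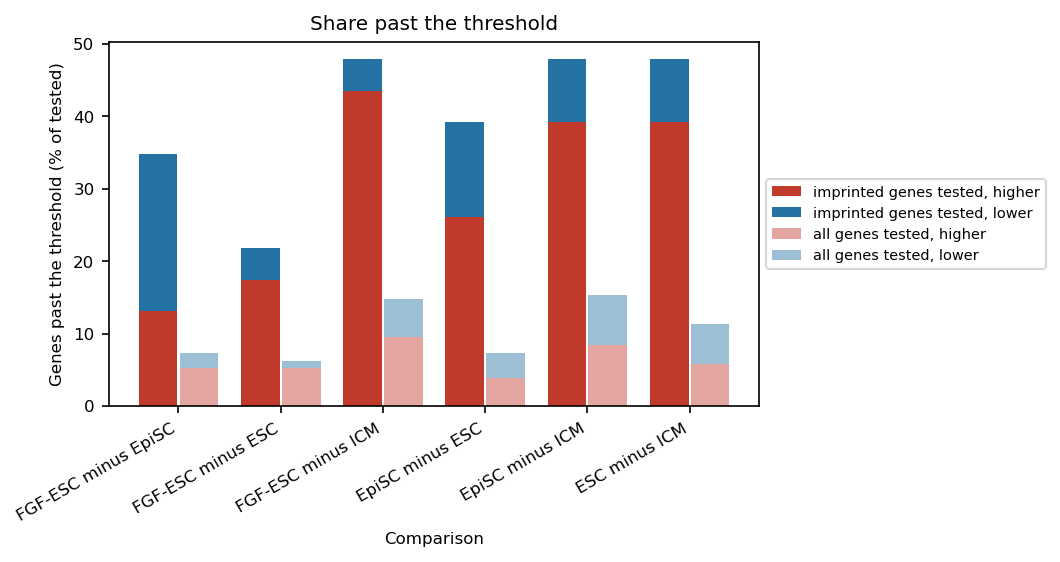
Bars give the percent of tested genes past the threshold in each comparison, on a linear axis from 0, with the 23 tested imprinted genes on the left of each pair and all 13597 tested genes, in paler colours, on the right. Red marks genes higher and blue genes lower in the group named first; the imprinted bars range from 21.7% to 47.8% and the others from 6.21% to 15.3%.

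The median log2 fold change of the 23 tested members was -0.24 for FGF-ESC against EpiSC, 0.34 for FGF-ESC against ESC and 0.75 for FGF-ESC against ICM. It was 0.53 for EpiSC against ESC, 0.85 for EpiSC against ICM and 0.49 for ESC against ICM. Over all tested genes the medians lay between -0.06 and 0.02. The culture groups thus had members above ICM more often than below: 19 of 23 fold changes against ICM were positive in FGF-ESC, 19 in EpiSC and 15 in ESC. Of all 13597 tested genes, 6474, 6959 and 7181 were positive in the same comparisons, in this order. Among the 16 tested genes of the paternal allele, 8 rose and 1 fell in FGF-ESC against ICM, and among the 7 of the maternal allele 2 rose and 0 fell, where 9.57% of all tested genes rose and 5.22% fell. For EpiSC against ESC these counts were 4 and 3 for the paternal and 2 and 0 for the maternal allele, where 3.86% of all genes rose and 3.5% fell. Whether the alleles differ in these shares was not tested.

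**Figure D2:**
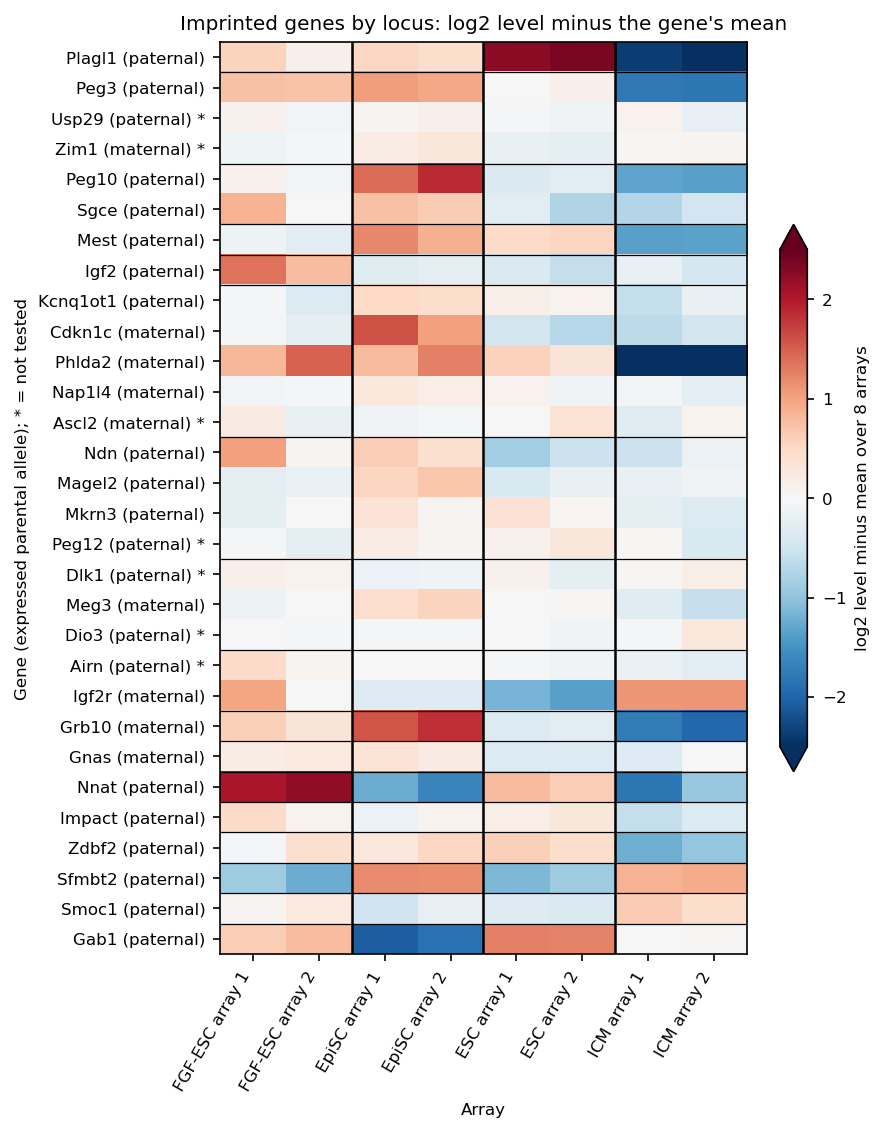
Each row is 1 of the 30 imprinted genes with a probe set and each column 1 array; colour gives the log2 level minus that gene's mean over the 8 arrays, with values beyond 2.5 at the ends of the scale. Horizontal lines separate loci. ICM columns are blue for Plagl1, Peg3, Peg10, Mest, Phlda2 and Grb10 and red for Igf2r and Sfmbt2.

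Plagl1 is a zinc finger transcription factor that can arrest the cell cycle and acts on other imprinted genes. On the brighter of its probe sets it had the widest range of all members. Its log2 level was 6.61 and 6.17 in FGF-ESC, 6.57 and 6.49 in EpiSC, 8.31 and 8.41 in ESC, and 3.67 and 2.17 in ICM. ESC arrays were the highest, the FGF-ESC and EpiSC arrays overlapped below them, and the ICM arrays were under the floor. FGF-ESC were lower than ESC by -1.97 ± 0.40 (SE, n = 2 arrays per group; limma adjusted p = 0.016) and EpiSC were lower by -1.83 ± 0.40 (adjusted p = 0.0148). The calls were lost when some arrays were left out: the adjusted p was 0.106 and 0.11 for FGF-ESC without ESC array 1 or array 2, and 0.0811 to 0.0987 for EpiSC without any 1 EpiSC or ESC array. Against ICM, Plagl1 rose by 3.47 ± 0.40 in FGF-ESC, 3.61 ± 0.40 in EpiSC and 5.44 ± 0.40 in ESC (adjusted p = 4.02e-05 for ESC). These folds depend on a signal below the floor, and on the dimmer of its probe sets the differences were 0.67, 0.49 and 1.57. Between FGF-ESC and EpiSC the brighter one differed by -0.14 and the dimmer one by 0.18. On the dimmer one the differences from ESC were -0.9 for FGF-ESC, under the fold minimum, and -1.08 for EpiSC.

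The Peg3 domain holds the paternally expressed zinc finger gene Peg3, its divergent partner Usp29 and the maternally expressed Zim1. Peg3 was at 8.18 and 8.17 in FGF-ESC, 8.49 and 8.43 in EpiSC, 7.46 and 7.59 in ESC, and 5.67 and 5.64 in ICM. No arrays of any pair of groups overlapped, with EpiSC highest and ICM lowest. Peg3 rose against ICM by 2.52 ± 0.11 in FGF-ESC (limma adjusted p = 2.52e-06), 2.81 ± 0.11 in EpiSC and 1.87 ± 0.11 in ESC. Its differences of 0.65 for FGF-ESC and 0.94 for EpiSC, both against ESC, were under the fold minimum. Usp29, whose promoter window overlaps that of Peg3, stayed between 2.63 and 2.95 and was not tested, nor was Zim1, between 3.25 and 3.76.

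At the Peg10 locus, Peg10, a retrotransposon-derived gene needed for the placenta, and Sgce, a sarcoglycan of the cell membrane, are known to share 1 bidirectional promoter. Peg10 was at 6.68 and 6.50 in FGF-ESC, 7.96 and 8.43 in EpiSC, 6.20 and 6.30 in ESC, and 5.25 and 5.20 in ICM. EpiSC stood above all other arrays and ICM below all others. FGF-ESC were lower than EpiSC by -1.61 ± 0.17 (limma adjusted p = 0.000489), while EpiSC were higher than ESC by 1.95 ± 0.17 (adjusted p = 0.000133). Against ICM, Peg10 rose by 1.36 in FGF-ESC, 2.97 in EpiSC and 1.02 ± 0.17 in ESC. The last was at the fold minimum and lost its call without ESC array 2 (0.97), without ICM array 2 (0.99) and under quantile normalization (0.98).

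Sgce was at 5.76 and 4.89 in FGF-ESC, 5.61 and 5.52 in EpiSC, 4.61 and 4.13 in ESC, and 4.15 and 4.41 in ICM. FGF-ESC and EpiSC, which shared both medium and feeders, were above the others. Sgce rose by 1.19 ± 0.28 in EpiSC against ESC (limma adjusted p = 0.019), by 1.28 ± 0.28 in EpiSC against ICM and by 1.04 ± 0.28 in FGF-ESC against ICM. The call of EpiSC against ESC was lost without ESC array 2 (adjusted p = 0.152) or either EpiSC array (0.113 and 0.0868), that of EpiSC against ICM without ICM array 1 (0.0512), and that of FGF-ESC against ICM without FGF-ESC array 1 (0.61 on the log2 scale), ICM array 1 (adjusted p = 0.104) or ICM array 2 (0.0502), and when limma was fitted to FGF-ESC and ICM alone (0.058). The difference of 0.95 ± 0.28 between FGF-ESC and ESC did not pass. FGF-ESC array 1, which had the higher fibroblast level, was 0.87 above array 2 for Sgce and 0.18 above it for Peg10. The part of fibroblast RNA in either level was not tested.

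Other genes of this cluster, which are not members and were picked after their values were seen, are given beside Peg10. Asb4, a subunit of ubiquitin ligases, was at 2.93 and 3.18 in FGF-ESC, 5.25 and 4.76 in EpiSC, 3.28 and 2.98 in ESC and 3.40 and 3.97 in ICM. It was above the floor on the EpiSC arrays alone, through which it was tested, so no fold is given. Casd1, a sialic acid acetyltransferase, was 1.13 ± 0.24 higher in EpiSC than in ESC (adjusted p = 0.0129), a call lost under 4 of 15 alternatives. Ppp1r9a, which encodes an actin-binding scaffold, was 0.51 ± 0.16 higher in EpiSC than in ESC and did not pass in that comparison. In EpiSC against ICM both passed, Casd1 at 1.3 and Ppp1r9a at 1.01, the latter a call lost under 2 of 15 alternatives.

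Mest, which encodes an enzyme-like protein of the endoplasmic reticulum that promotes growth, was at 7.34 and 7.21 in FGF-ESC, 8.67 and 8.36 in EpiSC, 7.95 and 8.02 in ESC, and 6.12 and 6.13 in ICM. The 4 groups did not overlap, and FGF-ESC were the lowest of the cultured cells. FGF-ESC were lower than EpiSC by -1.24 ± 0.14 (limma adjusted p = 0.000646), and the difference of -0.71 ± 0.14 from ESC was under the fold minimum. Mest rose against ICM by 1.15 in FGF-ESC, 2.39 in EpiSC and 1.86 in ESC.

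**Figure D3:**
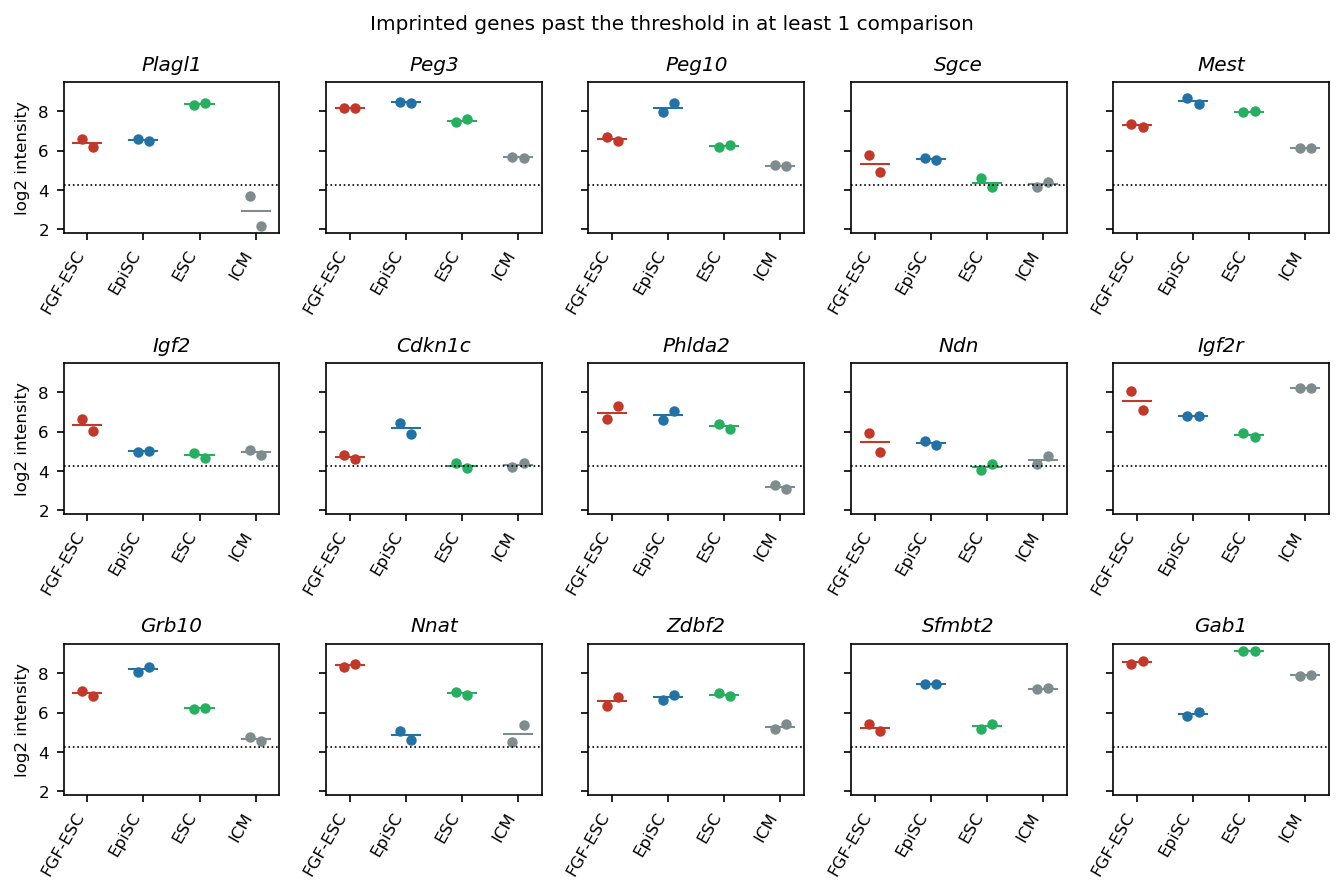
Each panel is 1 imprinted gene that passed in at least 1 comparison; points are the 2 arrays of a group, short lines the group mean, and the dotted line the floor of 4.24, on a log2 intensity axis. Levels of different genes come from different probe sets and are not to be compared. Nnat and Igf2 are highest in FGF-ESC, and Plagl1 and Phlda2 lie under the floor in ICM.

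Igf2, a fetal growth factor, was highest in FGF-ESC. Its log2 level was 6.62 and 6.05 in FGF-ESC, 4.97 and 5.02 in EpiSC, 4.91 and 4.68 in ESC, and 5.08 and 4.83 in ICM. Only the FGF-ESC arrays stood apart; the other 6 lay between 4.68 and 5.08. Igf2 rose in FGF-ESC by 1.34 ± 0.19 against EpiSC (limma adjusted p = 0.00256), 1.54 ± 0.19 against ESC (adjusted p = 0.00219) and 1.38 ± 0.19 against ICM (adjusted p = 0.000909). Without FGF-ESC array 1 the folds were 1.05, 1.25 and 1.10 and all 3 still passed. The fibroblast mean was highest on the same 2 arrays, at 8.61 and 7.38, and array 1 was above array 2 by 0.57 for Igf2; the part of fibroblast RNA in this rise was not tested. H19, the maternally expressed long noncoding RNA next to Igf2, had no probe set of its own.

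Igf2r, the maternally expressed receptor that takes IGF2 to the lysosome for degradation, did not run parallel to Igf2. It was at 8.08 and 7.09 in FGF-ESC, 6.78 and 6.77 in EpiSC, 5.94 and 5.74 in ESC, and 8.21 and 8.20 in ICM. ICM arrays were the highest and ESC the lowest, and the FGF-ESC pair was 0.99 apart, the most of any tested member in that group. Igf2r rose in FGF-ESC against ESC by 1.74 ± 0.27 (limma adjusted p = 0.00557; 0.0614 without ESC array 2). It fell against ICM in EpiSC (-1.43 ± 0.27) and in ESC (-2.36 ± 0.27, adjusted p = 0.000385). The differences of FGF-ESC from EpiSC (0.81) and from ICM (-0.62) did not pass, although the first did without FGF-ESC array 2 (1.31) and the second without FGF-ESC array 1 (-1.11). Airn, the paternally expressed antisense RNA that silences Igf2r in cis, lay between 3.64 and 4.39 and was not tested, since 1 array alone, FGF-ESC array 1, was above the floor. Whether the Igf2r and Airn probe sets separate the strands is not given in the sources used here.

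In the Kcnq1 cluster, Kcnq1ot1 is the paternally expressed noncoding RNA that silences the maternally expressed genes around it. Cdkn1c, an inhibitor of cyclin-dependent kinases and of growth, was at 4.81 and 4.61 in FGF-ESC, 6.45 and 5.88 in EpiSC, 4.40 and 4.14 in ESC, and 4.21 and 4.40 in ICM. The EpiSC arrays stood above all others, and 1 array each of ESC and ICM lay under the floor. FGF-ESC were lower than EpiSC by -1.45 ± 0.20 (limma adjusted p = 0.00197), and EpiSC were higher than ESC by 1.89 ± 0.20 and than ICM by 1.86 ± 0.20.

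Phlda2, which limits placental growth, had another pattern. It was at 6.64 and 7.28 in FGF-ESC, 6.60 and 7.07 in EpiSC, 6.39 and 6.13 in ESC, and 3.30 and 3.06 in ICM. All cultured cells were far above ICM, where it lay under the floor, and FGF-ESC and EpiSC overlapped. Phlda2 rose against ICM by 3.79 ± 0.24 in FGF-ESC (limma adjusted p = 1.6e-05), 3.66 ± 0.24 in EpiSC and 3.08 ± 0.24 in ESC. Its difference of 0.70 between FGF-ESC and ESC did not pass, but did without FGF-ESC array 1 (1.02). The folds against ICM depend on a signal below the floor. Between the FGF-ESC arrays Phlda2 was 0.64 lower on array 1, and the part of fibroblast RNA in its level was not tested.

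Kcnq1ot1 itself was at 5.54 and 5.24 in FGF-ESC, 6.09 and 6.04 in EpiSC, 5.74 and 5.68 in ESC and 4.99 and 5.41 in ICM, and passed in no comparison. Its difference between FGF-ESC and EpiSC was -0.68, with EpiSC the highest group, as for Cdkn1c. Nap1l4, a histone chaperone, had the narrowest range of the tested members, between 7.88 and 8.39. Ascl2, a transcription factor of the trophoblast lineage, lay between 3.23 and 3.89.

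Of the Prader-Willi cluster (Snrpn to Peg12), Ndn alone passed. Ndn, a growth suppressor of the MAGE family, was at 5.92 and 4.97 in FGF-ESC, 5.51 and 5.30 in EpiSC, 4.03 and 4.37 in ESC, and 4.37 and 4.75 in ICM. FGF-ESC and EpiSC, which shared both medium and feeders, were above the others, and array 1 of FGF-ESC was 0.95 above array 2. Ndn rose against ESC by 1.25 ± 0.29 in FGF-ESC (limma adjusted p = 0.0259) and by 1.21 ± 0.29 in EpiSC (adjusted p = 0.022). The first was 0.77 (adjusted p = 0.0608) without FGF-ESC array 1 and did not pass without ESC array 1 (0.182) or array 2 (0.0973), nor when limma was fitted to FGF-ESC and ESC alone (0.0874). The second did not pass without any 1 array of either group (adjusted p = 0.0741 to 0.162). Sgce and Ndn, with Igf2r, were the members that differed most between the FGF-ESC arrays, and the part of fibroblast RNA in them was not tested.

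Magel2, a neighbour of Ndn in the same family, was at 4.15 and 4.23 in FGF-ESC, 4.93 and 5.08 in EpiSC, 4.01 and 4.21 in ESC, and 4.21 and 4.31 in ICM. It was above the floor on the EpiSC arrays and 1 ICM array. Without EpiSC, where it was highest, it would not have been tested, so no fold is given. It is counted among the tested members and passed in no comparison. Mkrn3, a ubiquitin ligase known to restrain puberty, stayed between 4.50 and 5.21. Peg12, whose protein binds the kinase GSK3, lay between 3.55 and 4.23 and was not tested.

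**Figure D4:**
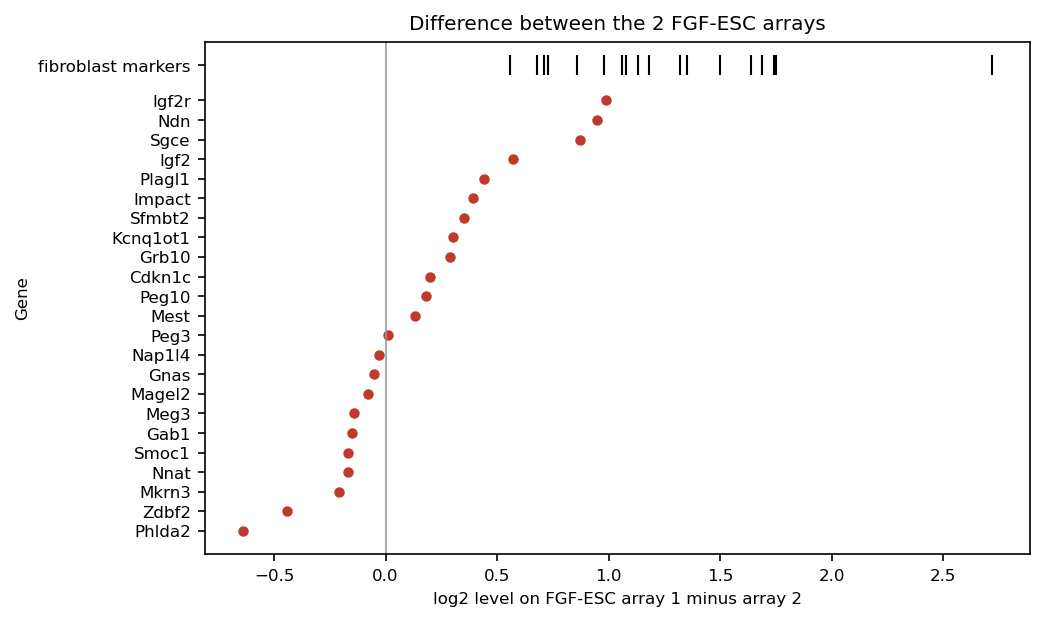
Points give the log2 level on FGF-ESC array 1 minus array 2 for each of the 23 tested imprinted genes, sorted, and ticks on the top row give the same for the 19 fibroblast markers. All ticks are above 0, while 13 members are above and 10 below; Igf2r, Ndn and Sgce are the 3 highest at 0.99, 0.95 and 0.87, and Phlda2 is the lowest at -0.64.

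In the Dlk1-Dio3 cluster the coding genes were dim: Dlk1, a Notch-like membrane protein, lay between 3.88 and 4.25, and Dio3, which inactivates thyroid hormone, between 3.22 and 3.58. Meg3, the maternally expressed noncoding RNA whose silencing is known to mark mouse stem cell lines of reduced potential, was well above the floor in all groups. It was at 7.01 and 7.15 in FGF-ESC, 7.56 and 7.71 in EpiSC, 7.16 and 7.17 in ESC, and 6.84 and 6.57 in ICM. EpiSC were the highest and ICM the lowest, but the differences of -0.55 for FGF-ESC against EpiSC and -0.08 for FGF-ESC against ESC did not pass. The other 2 probe sets that list Meg3 also list miRNA genes and were not used here. Which strand the probe set used here reads is not given in the sources, so its level may not be that of Meg3 itself.

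Grb10, an adaptor that dampens insulin and IGF receptor signalling and is read from the maternal copy outside the brain, separated all groups. It was at 7.12 and 6.83 in FGF-ESC, 8.09 and 8.34 in EpiSC, 6.17 and 6.24 in ESC, and 4.77 and 4.56 in ICM. FGF-ESC lay between EpiSC and ESC without overlap. FGF-ESC were lower than EpiSC by -1.24 ± 0.15 (limma adjusted p = 0.00113), and the difference of 0.77 from ESC was under the fold minimum. Grb10 rose by 2.01 ± 0.15 in EpiSC against ESC (adjusted p = 8.04e-05), and against ICM by 2.31 in FGF-ESC, 3.55 in EpiSC and 1.54 in ESC. Its neighbour Cobl, an actin nucleator that is no member, went the other way: it was at 6.51 and 6.93 in FGF-ESC, 4.84 and 4.86 in EpiSC, 7.29 and 7.47 in ESC and 4.81 and 4.54 in ICM. Cobl fell in EpiSC against ESC (-2.53 ± 0.17, adjusted p = 4.58e-05) and rose in FGF-ESC against EpiSC by 1.87 ± 0.17.

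Nnat encodes a small membrane protein of the endoplasmic reticulum known from developing brain. On the brighter of its probe sets it had the largest rise of any member in FGF-ESC against EpiSC. It was at 8.33 and 8.50 in FGF-ESC, 5.05 and 4.63 in EpiSC, 7.07 and 6.90 in ESC, and 4.48 and 5.35 in ICM. FGF-ESC were above every other array, and the EpiSC and ICM arrays overlapped at the bottom. Nnat rose in FGF-ESC by 3.57 ± 0.27 against EpiSC (limma adjusted p = 0.000124), by 3.5 ± 0.27 against ICM and by 1.43 ± 0.27 against ESC (adjusted p = 0.0118; 0.081 without ESC array 1 and 0.0976 without ESC array 2). EpiSC were lower than ESC by -2.14 ± 0.27 (adjusted p = 0.00097). The second probe set of Nnat gave the same order, at 6.96 and 6.63 in FGF-ESC, 5.08 and 5.09 in EpiSC, 6.15 and 5.68 in ESC and 5.08 and 5.09 in ICM, with differences of 1.71 and 0.88 for FGF-ESC against EpiSC and against ESC. The difference of 0.88 is under the fold minimum. Which strand either Nnat probe set reads is not given in the sources used here. On the brighter one, Nnat was 0.17 lower on FGF-ESC array 1 than on array 2, and the part of fibroblast RNA in its level was not tested. Blcap, the gene in whose intron Nnat lies and which was picked after its values were seen, stayed between 5.08 and 5.65 on all arrays.

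Of the remaining genes with a canonical imprint, Zdbf2, a zinc finger gene that acts on feeding and growth after birth, was at 6.35 and 6.79 in FGF-ESC, 6.64 and 6.89 in EpiSC, 6.98 and 6.83 in ESC, and 5.16 and 5.41 in ICM. The cultured groups lay above ICM, and it rose against ICM by 1.28 ± 0.18 in FGF-ESC, 1.48 ± 0.18 in EpiSC and 1.62 ± 0.18 in ESC. Impact, an inhibitor of the GCN2 stress pathway, lay between 7.14 and 8.21, and Gnas, the stimulatory G protein subunit, between 4.43 and 5.11; neither passed. Transcripts of the Gnas locus start at several promoters of different imprint, which 1 probe set cannot separate.

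The 3 members with a noncanonical imprint, all paternally expressed in extraembryonic tissue, differed from each other. Sfmbt2, a Polycomb-related gene needed in the placenta, was at 5.41 and 5.06 in FGF-ESC, 7.48 and 7.46 in EpiSC, 5.19 and 5.41 in ESC, and 7.18 and 7.24 in ICM. FGF-ESC and ESC overlapped at the low level, EpiSC and ICM were both high. FGF-ESC were lower than EpiSC by -2.24 ± 0.15 (limma adjusted p = 7.26e-05) and than ICM by -1.98 ± 0.15, EpiSC were higher than ESC by 2.17 ± 0.15 and ESC were lower than ICM by -1.91 ± 0.15.

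Gab1, a docking protein that links receptor kinases to ERK and PI3K, was at 8.49 and 8.64 in FGF-ESC, 5.81 and 6.01 in EpiSC, 9.14 and 9.12 in ESC, and 7.87 and 7.91 in ICM. The order was ESC, FGF-ESC, ICM and EpiSC, with no overlap. Gab1 rose in FGF-ESC against EpiSC by 2.66 ± 0.12 (limma adjusted p = 2.05e-05) and in ESC against ICM by 1.24 ± 0.12. It fell in EpiSC against ESC (-3.23 ± 0.12, adjusted p = 5.72e-06) and against ICM (-1.98 ± 0.12). Smoc1, a secreted modulator of BMP signalling, was at 5.63 and 5.80 in FGF-ESC, 5.06 and 5.36 in EpiSC, 5.24 and 5.20 in ESC and 6.20 and 5.99 in ICM, and passed in no comparison.

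Set side by side, the 9 members that differed between EpiSC and ESC placed FGF-ESC variously. FGF-ESC arrays overlapped with those of ESC for Sfmbt2, and lay nearer to ESC than to EpiSC without overlap for Peg10, Cdkn1c, Gab1 and Grb10. They overlapped with those of EpiSC for Plagl1, Ndn and Sgce. For each of these the FGF-ESC arrays lay on either side of the EpiSC arrays. Their calls between EpiSC and ESC were also lost when some arrays were left out. For Nnat they lay beyond ESC, on the side away from EpiSC.

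**Figure D5:**
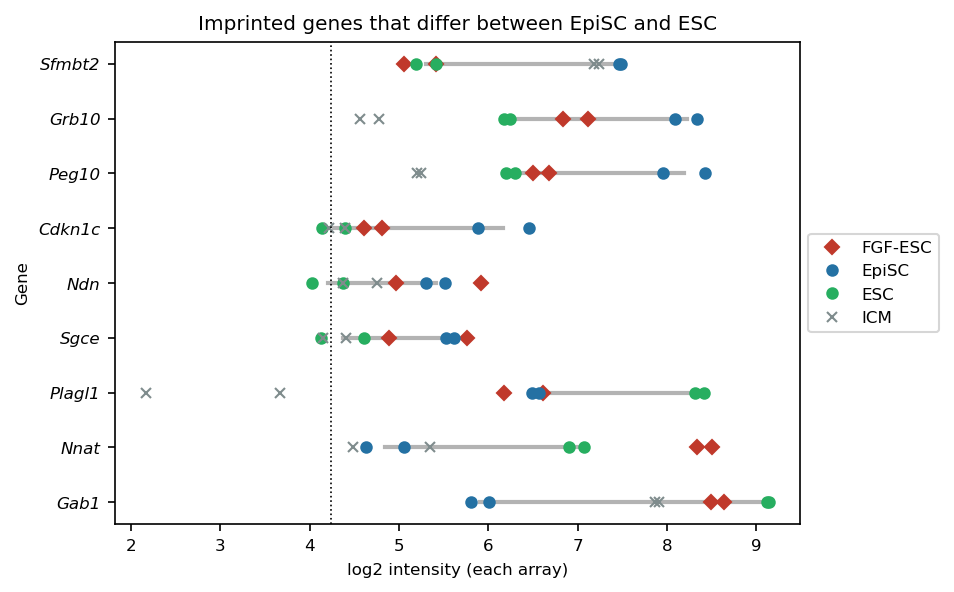
Rows are the 9 imprinted genes past the threshold between EpiSC and ESC, sorted by that fold change, and the x axis is log2 intensity. Diamonds are FGF-ESC arrays, blue circles EpiSC, green circles ESC and crosses ICM; the grey bar joins the EpiSC and ESC means and the dotted line is the floor. FGF-ESC lie near ESC for Sfmbt2, Peg10, Cdkn1c and Gab1, near EpiSC for Plagl1, and beyond ESC for Nnat, at 8.33 and 8.50.

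A list of 55 further genes reported as imprinted in the mouse had 36 tested genes. In FGF-ESC, 8 rose and 1 fell against EpiSC, which is 25% of the 36 against 7.28% of all tested genes. Against ESC 5 rose and 1 fell (16.7% against 6.21%), and against ICM 5 rose and 1 fell, a share near that of all genes (16.7% against 14.8%). The median fold changes were 0.13, -0.01 and 0.32. In EpiSC against ESC 4 rose and 4 fell (22.2% against 7.36%). The counts hold Tnfrsf23, Tfpi2 and Pon3, which rose in each FGF-ESC comparison, and Asb4, the 1 that fell against EpiSC. Each of them was tested only through the group where it was high. So was Inpp5f, named after its values were seen, which rose with Asb4 in EpiSC against ESC. It was at 5.03 and 4.51 in EpiSC, 4.32 and 4.06 in FGF-ESC and between 3.45 and 3.71 on the other arrays. These shares thus depend in part on the filter. Tnfrsf23, a decoy receptor gene beside the Kcnq1 cluster, was at 8.54 and 6.78 in FGF-ESC and between 3.30 and 3.94 on the other arrays. Tfpi2, a protease inhibitor gene of the Peg10 cluster, was at 7.20 and 5.74 in FGF-ESC and between 3.70 and 3.99 elsewhere, and Pon3, a lactonase gene of that cluster, at 5.86 and 4.31 and between 3.04 and 3.31. These 3 genes were above the floor on the FGF-ESC arrays alone, through which they were tested, so no fold is given. All 3 were higher on FGF-ESC array 1, as the fibroblast markers were, and their relation to fibroblast RNA was not tested. Cd81, a tetraspanin next to the Kcnq1 cluster, was at 10.62 and 10.24 in FGF-ESC, 9.23 and 9.46 in EpiSC and 10.13 and 10.10 in ESC, against 4.79 and 5.80 in ICM.

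Xist, the RNA that silences an X chromosome in female cells and is imprinted in the early embryo, was at 8.19 and 7.73 in FGF-ESC, 3.75 and 4.37 in EpiSC, 4.28 and 4.49 in ESC and 9.29 and 9.34 in ICM. It rose in FGF-ESC by 3.90 ± 0.22 against EpiSC (limma adjusted p = 4.62e-05) and by 3.57 ± 0.22 against ESC. The labels give no sex for any group, nor for the feeder cells.

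Of 20 factors that keep or change imprints, all tested, 5 rose and 0 fell in FGF-ESC against EpiSC, 25% against 7.28% of all tested genes. In FGF-ESC 0 rose and 1 fell against ESC (5.0% against 6.21%) and 0 rose and 3 fell against ICM (15.0% against 14.8%), both near the share of all genes. Zfp57 was at 7.88 and 8.17 in FGF-ESC, 6.39 and 6.64 in EpiSC, 8.68 and 8.49 in ESC and 7.06 and 7.34 in ICM, and rose by 1.51 ± 0.16 against EpiSC (limma adjusted p = 0.000645). Dppa3, which shields methylation in the zygote, rose against EpiSC by 2.72 ± 0.26 and fell against ICM (-3.12 ± 0.26). Tet2, a methylcytosine oxidase, was at 6.15 and 6.61 in FGF-ESC, against 3.77 and 4.23 in EpiSC, both under the floor. Dnmt3l, the cofactor that helps set imprints in germ cells, rose against EpiSC by 1.34 ± 0.14 and fell against ESC (-1.30 ± 0.14). In EpiSC against ESC 2 rose and 5 fell (35.0% against 7.36% of all genes). Dnmt3a and Dnmt3b, the de novo methyltransferases, rose by 1.33 ± 0.11 and 2.0 ± 0.14, while Zfp57 (-2.07), Dppa3 (-2.45), Dnmt3l (-2.64), Tet2 (-3.23, from a level under the floor in EpiSC) and Tet1 (-1.32, named after its value was seen) fell.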

How the data were processed

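Transcript levels of 8 samples, 2 in each of 4 groups, were read from 1 table of 41345 probe sets. The authors deposited log2 intensities, for which the submitters' processing notes name Affymetrix Expression Console 1.3.1. For summarisation, background correction and genome build no source used here gives details. Array medians lay between 4.16 and 4.28, and no further normalization was applied. Groups come from the sample titles. Of the probe sets, 23521 carried 1 gene symbol in the platform annotation, 1814 several and 16010 none; 23328 of the single-gene ones matched the RefSeq table (GRCm38.p6). The brightest probe set by mean over all arrays stood for each of 22180 genes, and 13597 above 4.24 on at least 2 arrays were tested.

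A means model over all 8 arrays was fitted with limma 3.58.1 in R 4.3.3 (4 residual degrees of freedom), with Benjamini-Hochberg adjustment within each of 6 comparisons. Every adjusted p and SE is limma's. An exact permutation test of 2 arrays against 2 cannot go below p = 0.333 (two-sided). Since no label states separate cultures or pools of embryos for the 2 arrays of a group, p-values reflect the spread of these samples alone, possibly technical, and the number of arrays limits the precision. The code was tested on simulated data. All 34 members are accounted for; those that passed are given on every array, others on every array or by range, and 4 have no probe set. Non-members named are up to 6 of each list with the largest fold change, and those said to be picked later. Members and lists were chosen with earlier results of these data known. Alternatives changed the normalization, the filter, the fold minimum, the probe sets, the groups fitted, the variance model, the replicate block and the arrays used.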

Additional observations from a re-analysis of the deposited data

How the results depend on the processing

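Of the 55 results of single members past the threshold, 45 kept their direction and call under all 15 alternatives and 10 lost the call under at least 1, with 0 reversals. The number of members past the threshold for FGF-ESC against EpiSC was 8 under the 7 alternatives that kept all arrays and the fold minimum, 8 to 9 with 1 array left out, and 12 without the fold minimum. Leave-one-out ranges were 1 to 6 for FGF-ESC against ESC (2 without ESC array 1 and 1 without ESC array 2), 10 to 12 for FGF-ESC against ICM, 6 to 9 for EpiSC against ESC, 11 to 12 for EpiSC against ICM and 10 to 11 for ESC against ICM. Where an array was left out, its group's lone array was assumed to vary like the other groups. Without the fold minimum, 10 members passed for FGF-ESC against ESC in place of 5, 15 for EpiSC against ESC in place of 9 and 18 for EpiSC against ICM in place of 11. The share of all tested genes that passed without the fold minimum is not given here. The labels give the groups the same replicate numbers but no shared origin, and deviations of same-numbered arrays correlated between -0.086 and 0.042. With the replicate block, the counts were 8, 5, 11, 9, 11 and 11, as without it, and no call of a member was lost. Quantile normalization moved the median of all genes by less than 0.1 in each comparison. Intensities near or under the floor limit Plagl1 and Phlda2 in ICM, Cdkn1c and Sgce in ESC and ICM, Ndn in ESC, and Magel2 in FGF-ESC, ESC and ICM.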
